A study of Mus musculus with 8 samples.

Results

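RNA of 9 genes by which B lymphocytes are commonly recognised was followed in RNAseq libraries of sorted spleen neutrophils, namely *Ighm*, *Ighd*, *Cd79a*, *Cd79b*, *Blk*, *Cr2*, *Fcer2a*, *Ms4a1* and *Pax5*. They were chosen by symbol as B cell identity genes, although earlier results of these data were known when the choice was made. They are 9 of the 55414 genes listed with a count in each library. All 9 passed the filter on low counts. Each library came from the spleen neutrophils of 1 mouse, and there were 4 WT and 4 *Cxcr2-/-* mice, all FVB animals aged 10 weeks. The *Cxcr2-/-* mice, knockouts of the chemokine receptor CXCR2, had been backcrossed to FVB. Cells were first enriched by selection for CD11b and then sorted as CD45+ CD11b+ Ly6G+ F4/80- cells, a gate that most B cells should not pass, as they carry no Ly6G.

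B cells recognise antigen with a membrane-bound immunoglobulin, and mature naive B cells of the spleen carry it as IgM and IgD. The immunoglobulin chains have no signalling tail of their own and depend on the CD79A and CD79B chains, on which Src family kinases such as BLK act when antigen binds. The transcription factor PAX5 keeps B cells committed to their lineage. Neutrophils do not rearrange immunoglobulin genes, and RNA of these genes in a neutrophil sort is often read as a measure of carried-over B cells.

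The libraries matched their labels. The WT libraries held 1956 ± 221 CPM of *Cxcr2*, the targeted gene, against 17.1 ± 3.46 CPM in the *Cxcr2-/-* libraries (mean ± SD, n = 4 each), where CPM is the count of a gene divided by the library size and multiplied by 1000000, after TMM scaling of that size. The neutrophil gene *S100a9*, a calcium-binding granulocyte protein, was at 25920 CPM per kb of exon in WT and 64876 CPM per kb in *Cxcr2-/-* libraries on average, and the highest value of any of the 9 B cell genes was 45.1 CPM per kb. The WT libraries held 34220182 to 46233555 counts on genes and the *Cxcr2-/-* libraries 37549648 to 43789253. Read pairs that met no gene made up 31.4% in WT library 1, 40.0% to 41.5% in the remaining WT libraries and, among *Cxcr2-/-* libraries, 26.7% to 31.9%, so WT library 1 stood apart from its group in this respect. Test calls that change without it, and the correlations and ratios between these genes, are also given without it.

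Compared to WT, *Cxcr2-/-* neutrophils had less RNA of 8 of the 9 B cell genes and more of none (adjusted p under 0.05 in the quasi-likelihood test of edgeR, with Benjamini-Hochberg adjustment over 16778 genes). *Cd79a* was the exception. Of all genes tested, 21.0% were lower and 23.7% higher by the same rule. The median log2 fold change (*Cxcr2-/-* over WT) was -1.34 over the 9 genes and 0.01 over all genes tested. For 4 of the 9 genes, *Ighm*, *Ighd*, *Cr2* and *Blk*, every *Cxcr2-/-* library was below every WT library, as was the case for 19.1% of all genes tested. Under scaling by total counts alone, *Cr2* overlapped (11.8 CPM in the highest *Cxcr2-/-* and 11.7 CPM in the lowest WT library) and *Fcer2a* did not, while *Ighm*, *Ighd* and *Blk* stayed apart. Without WT library 1, only *Ighm*, *Ighd* and *Cr2* were lower, that is 3 of the 9 genes, whereas without WT library 2 all 9 were (*Cd79a* with an adjusted p of 0.0444 by edgeR). In bulk RNA of a sorted population, fewer B cells and less of these RNAs per cell cannot be told apart.

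**Figure D1:**
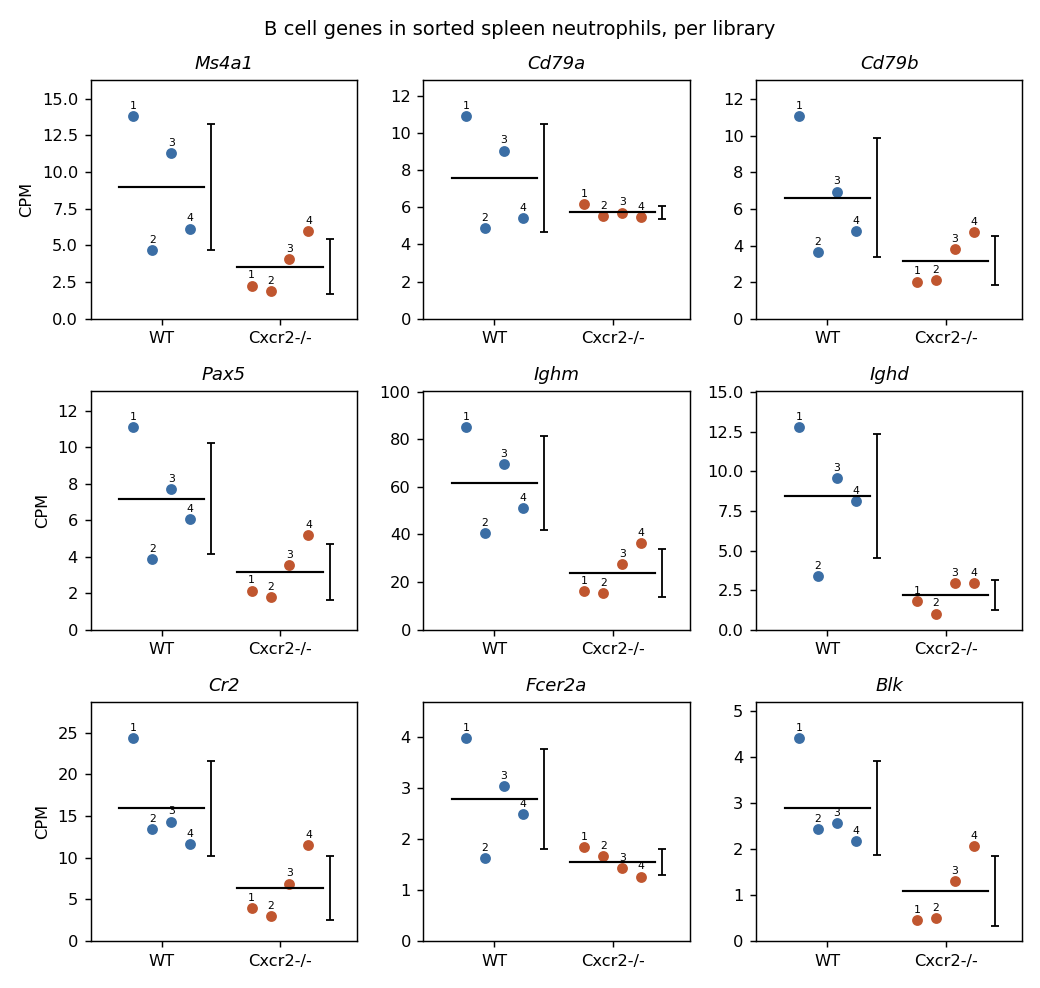
CPM of the 9 B cell genes in each of the 8 libraries, 1 panel per gene with its own axis from 0. Points are libraries marked with their replicate number, horizontal lines are group means and vertical bars are SD (n = 4). WT library 1 is the highest WT point in all 9 panels, and the *Cxcr2-/-* points of *Cd79a* lie between 5.47 and 6.19 CPM.

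The heavy chain genes of surface immunoglobulin were lower in *Cxcr2-/-* neutrophils whichever library was left out. *Ighm*, the constant region of the IgM heavy chain (chromosome 12, 113418558 to 113422730 of GRCm38, minus strand), was at 85.0, 40.7, 69.6 and 50.9 CPM in WT libraries 1, 2, 3 and 4 and at 16.2, 15.5, 27.7 and 36.3 CPM in *Cxcr2-/-* libraries 1, 2, 3 and 4. The groups did not overlap, although *Cxcr2-/-* library 4 came close to WT library 2. The level was 2.57-fold lower in *Cxcr2-/-* neutrophils (log2 fold change -1.36, SE 0.28, adjusted p = 0.00160 by edgeR).

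*Ighd*, the constant region of the IgD heavy chain, lies next to *Ighm* (chromosome 12, 113406604 to 113416324, minus strand) and is made from the same primary transcript by splicing. It was at 12.8, 3.38, 9.59 and 8.10 CPM in WT libraries and at 1.82, 1.02, 2.92 and 2.97 CPM in *Cxcr2-/-* libraries, listed by replicate number as for *Ighm*. No *Cxcr2-/-* library reached the lowest WT library. The difference of 3.86-fold (log2 fold change -1.95, SE 0.39, adjusted p = 0.00139 by edgeR) was the largest of the 9 in size, but its 95% interval, from -2.79 to -1.10, covers the log2 fold change of *Ighm*.

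The CD79 chains form one heterodimer, and only the decrease of *Cd79b* passed the test, while the difference between both fold changes was not tested. *Cd79b* (chromosome 11, 106311341 to 106314762, minus strand) was at 11.1, 3.66, 6.95 and 4.80 CPM in WT libraries and at 2.02, 2.10, 3.81 and 4.74 CPM in *Cxcr2-/-* libraries. *Cxcr2-/-* libraries 3 and 4 lay within the WT range and libraries 1 and 2 below it. The level was 2.09-fold lower (log2 fold change -1.06, SE 0.35, adjusted p = 0.0272 by edgeR). This call was lost without WT library 1 (adjusted p = 0.113), WT library 3 (0.0565), *Cxcr2-/-* library 1 (0.0694) or *Cxcr2-/-* library 2 (0.0736).

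*Cd79a* (chromosome 7, 24897381 to 24902197, plus strand) was at 10.9, 4.88, 9.06 and 5.44 CPM in WT libraries and at 6.19, 5.53, 5.72 and 5.47 CPM in *Cxcr2-/-* libraries. Its *Cxcr2-/-* libraries were thus close to one another and lay inside the WT range. The log2 fold change was -0.40 (SE 0.23, adjusted p = 0.181 by edgeR), with a 95% interval from -0.91 to 0.10, which reaches a decrease of 1.88-fold. In WT libraries 1, 2, 3 and 4 the counts of *Cd79a* were 0.986, 1.34, 1.30 and 1.13 times those of *Cd79b*. In *Cxcr2-/-* libraries 1, 2, 3 and 4 they were 3.06, 2.63, 1.5 and 1.15 times those of *Cd79b*, so 3 of the 4 *Cxcr2-/-* libraries were above every WT library.

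*Blk*, the Src family kinase of the B cell receptor (chromosome 14, 63372836 to 63417037, minus strand), had the lowest count of the 9 genes in a library. It was at 4.40, 2.43, 2.57 and 2.17 CPM in WT libraries and at 0.455, 0.498, 1.30 and 2.07 CPM in *Cxcr2-/-* libraries. WT library 4 and *Cxcr2-/-* library 4 were nearly equal, and the groups just failed to overlap. *Cxcr2-/-* libraries 1 and 2 held 18 reads each, for which the exact 95% Poisson interval runs from 10.7 to 28.4 reads and covers counting error only. The level was 2.67-fold lower (log2 fold change -1.42, SE 0.43, adjusted p = 0.0174 by edgeR).

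Of the surface receptors, *Cr2*, which encodes the complement receptors CD21 and CD35 and is high on marginal zone B cells and also found on follicular dendritic cells (chromosome 1, 195136811 to 195176716, minus strand), was at 24.3, 13.4, 14.3 and 11.6 CPM in WT libraries and at 3.89, 2.93, 6.89 and 11.5 CPM in *Cxcr2-/-* libraries. As for *Blk*, *Cxcr2-/-* library 4 nearly reached WT library 4, while libraries 1 and 2 were far below. The difference was 2.52-fold (log2 fold change -1.34, SE 0.36, adjusted p = 0.00934 by edgeR).

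*Ms4a1*, which encodes CD20 (chromosome 19, 11249675 to 11266241, minus strand), was at 13.8, 4.68, 11.3 and 6.13 CPM in WT libraries and at 2.25, 1.85, 4.07 and 5.95 CPM in *Cxcr2-/-* libraries. Only *Cxcr2-/-* library 4 lay within the WT range. The level was 2.54-fold lower (log2 fold change -1.34, SE 0.39, adjusted p = 0.0137 by edgeR), and the adjusted p was 0.0535 without WT library 1.

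*Fcer2a*, the low-affinity IgE receptor CD23 of follicular B cells (chromosome 8, 3681737 to 3694175, minus strand), was at 3.98, 1.63, 3.05 and 2.49 CPM in WT libraries and at 1.85, 1.66, 1.42 and 1.26 CPM in *Cxcr2-/-* libraries. WT library 2 was as low as *Cxcr2-/-* libraries 1 and 2. The difference of 1.80-fold (log2 fold change -0.85, SE 0.27, adjusted p = 0.0237 by edgeR) was lost without WT library 1 (0.0864), WT library 3 (0.0541), *Cxcr2-/-* library 3 (0.0523) or *Cxcr2-/-* library 4 (0.0553).

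*Pax5*, the lineage factor (chromosome 4, 44524757 to 44710487, minus strand), was at 11.1, 3.86, 7.72 and 6.05 CPM in WT libraries and at 2.15, 1.77, 3.56 and 5.18 CPM in *Cxcr2-/-* libraries. *Cxcr2-/-* library 4 was again the only one inside the WT range. The level was 2.26-fold lower (log2 fold change -1.18, SE 0.36, adjusted p = 0.0168 by edgeR). Its exons share 761 bases with genes on the opposite strand, and the strand setting of the counting is not given in the sources used here, so reads of these genes cannot be separated with certainty. Without WT library 1 the adjusted p was 0.0662 for *Pax5* and 0.0638 for *Blk*.

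**Figure D2:**
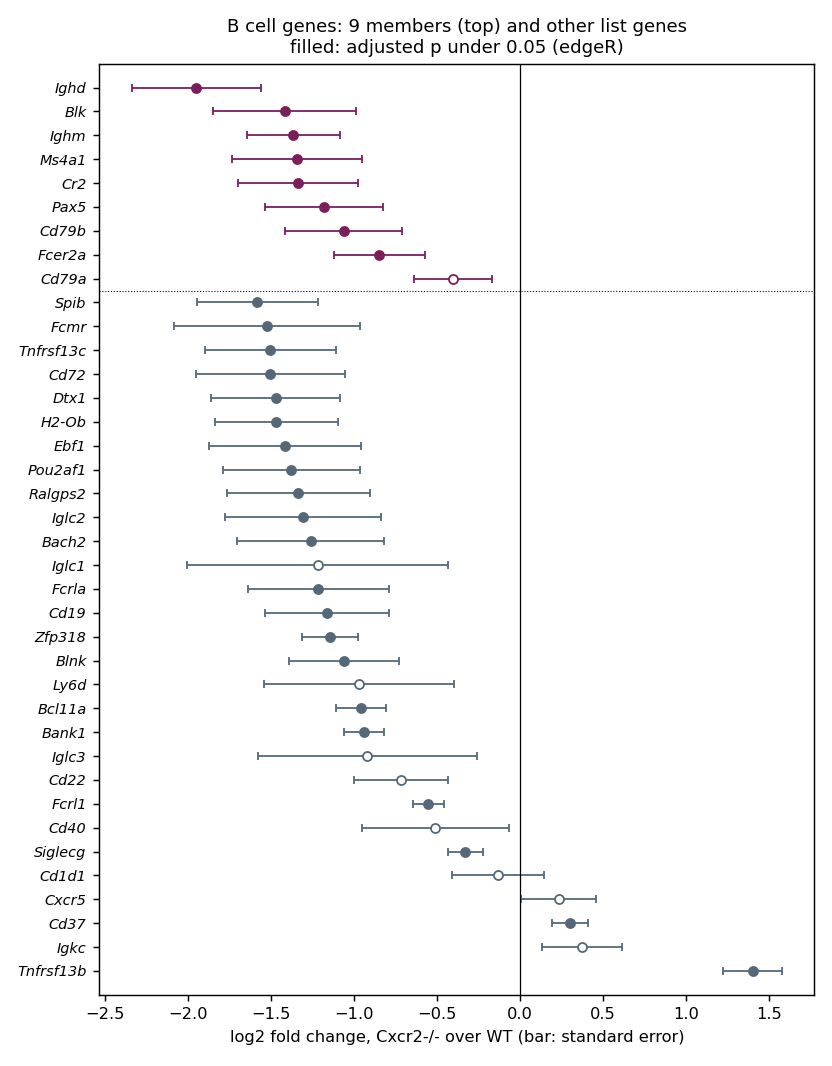
Log2 fold change (*Cxcr2-/-* over WT) of the 9 B cell genes (top) and of the other B cell genes tested (below), with all 8 libraries. Points are edgeR estimates, filled where the adjusted p was under 0.05, and bars are standard errors. The vertical line marks no change. All estimates of the 9 genes are below 0, and among the 9 only *Cd79a* has an open point.

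Per kb of exon, *Ighm* was at 32.6 ± 10.4 CPM per kb in WT and 12.7 ± 5.30 CPM per kb in *Cxcr2-/-* libraries, well above the other 8 genes. *Cd79a* came next at 5.2 ± 1.99 and 3.93 ± 0.225 CPM per kb, followed by *Cd79b* at 4.63 ± 2.28 and 2.21 ± 0.932 CPM per kb and *Ighd* at 4.45 ± 2.06 and 1.15 ± 0.493 CPM per kb. In WT these 3 genes were separated by less than their SD. *Cr2* was at 1.96, *Ms4a1* at 1.45, *Blk* at 1.07, *Fcer2a* at 0.901 and *Pax5* at 0.811 CPM per kb in WT, with an SD of 0.319 to 0.702 CPM per kb. Neighbours in this order were separated by less than the larger SD of the pair.

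Whether the genes moved together was examined library by library. In WT, library 1 was the highest for all 9 genes, and the order from high to low was 1, 3, 4, 2 for 7 of them and 1, 3, 2, 4 for *Cr2* and *Blk*. Among the *Cxcr2-/-* libraries, library 4 was the highest for 7 genes and library 3 came after it in all 7. *Cd79a* and *Fcer2a* departed from this, with *Cxcr2-/-* library 1 the highest and library 4 the lowest for both. Summed over the 9 genes, the level was 177, 78.7, 134 and 97.7 CPM in WT libraries against 36.8, 32.8, 57.3 and 75.4 CPM in *Cxcr2-/-* libraries 1, 2, 3 and 4.

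**Figure D3:**
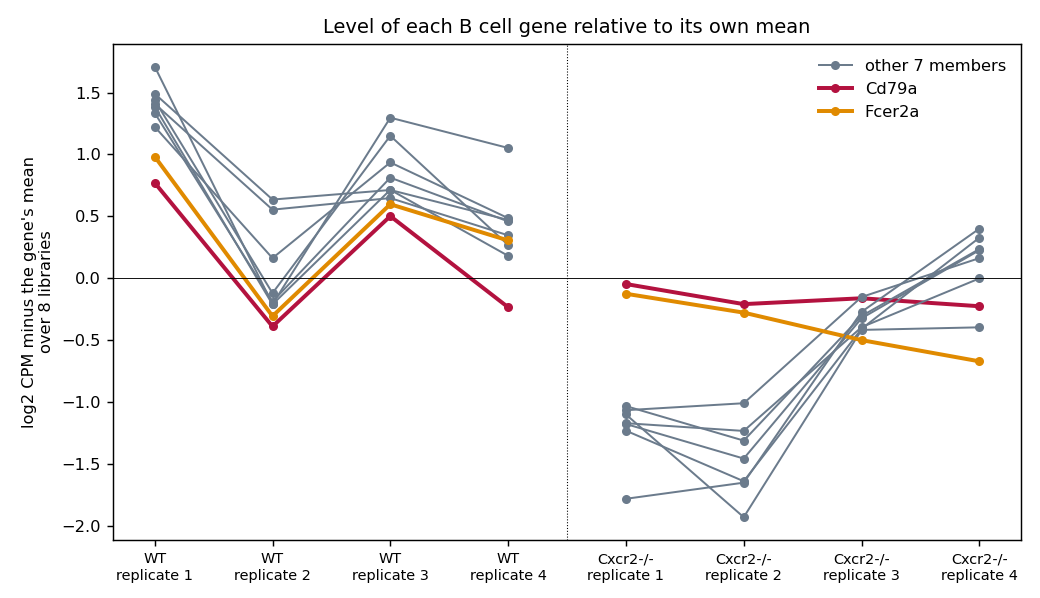
Level of each of the 9 B cell genes in each library relative to the gene's own mean over the 8 libraries, on a log2 axis. Lines join the libraries of 1 gene and carry no order in time or dose. Lines of 7 genes run close together, while *Cd79a* and *Fcer2a* stay flat or fall from *Cxcr2-/-* library 1 to library 4, where the others are highest.

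After the mean of each group was taken out, Pearson's r between the log2 CPM of gene pairs over the 8 libraries was 0.67 to 0.99 for the 21 pairs among the 7 genes, with a median of 0.90. It was 0.23 to 0.66 for the 7 pairs of *Cd79a* with these genes and -0.11 to 0.49 for the 7 pairs of *Fcer2a*. *Cd79a* and *Fcer2a* themselves gave 0.88. Without WT library 1, over 7 libraries, r was 0.61 to 0.99 for the 21 pairs, -0.06 to 0.49 for the pairs of *Cd79a*, -0.51 to 0.28 for those of *Fcer2a* and 0.78 between *Cd79a* and *Fcer2a*. Without removal of the group means, r was 0.46 to 0.99 over all 36 pairs (Spearman's rho 0.19 to 1). These values describe 8 libraries that each pair shares, along with their depth and scaling, and carry no test.

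The same contrast was seen when each gene was set against *Ighm* of the same library. *Ighm* itself varied 5.49-fold over the 8 libraries. *Ms4a1* stayed at 14.0 ± 2.59% of *Ighm* in WT and 14.3 ± 1.83% in *Cxcr2-/-* libraries, with a 1.43-fold range, *Pax5* at 11.4 ± 1.5% and 13.0 ± 1.16%, and *Cd79b* at 10.4 ± 1.83% and 13.2 ± 0.572%. *Cr2*, *Blk* and *Ighd* varied 1.74-fold, 2.12-fold and 2.40-fold relative to *Ighm*, with overlap between the groups. *Cd79a* was at 12.9, 12.0, 13.0 and 10.7% of *Ighm* in WT and at 38.3, 35.8, 20.7 and 15.1% in *Cxcr2-/-* libraries, without overlap. *Fcer2a* was at 4.68, 4.0, 4.38 and 4.88% of *Ighm* in WT, and at 11.4, 10.7, 5.15 and 3.48% in *Cxcr2-/-* libraries. For both genes the share was highest in *Cxcr2-/-* libraries 1 and 2, which held the least *Ighm*, and in WT it varied little. *Cd79a* and *Fcer2a* were singled out after their values were seen. Without WT library 1, the WT share was 13.3 ± 2.60% for *Ms4a1*, 10.8 ± 1.22% for *Pax5* and 11.9 ± 1.17% for *Cd79a* (n = 3), and that of *Cd79b*, at 9.46 ± 0.502%, no longer overlapped with *Cxcr2-/-*.

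**Figure D4:**
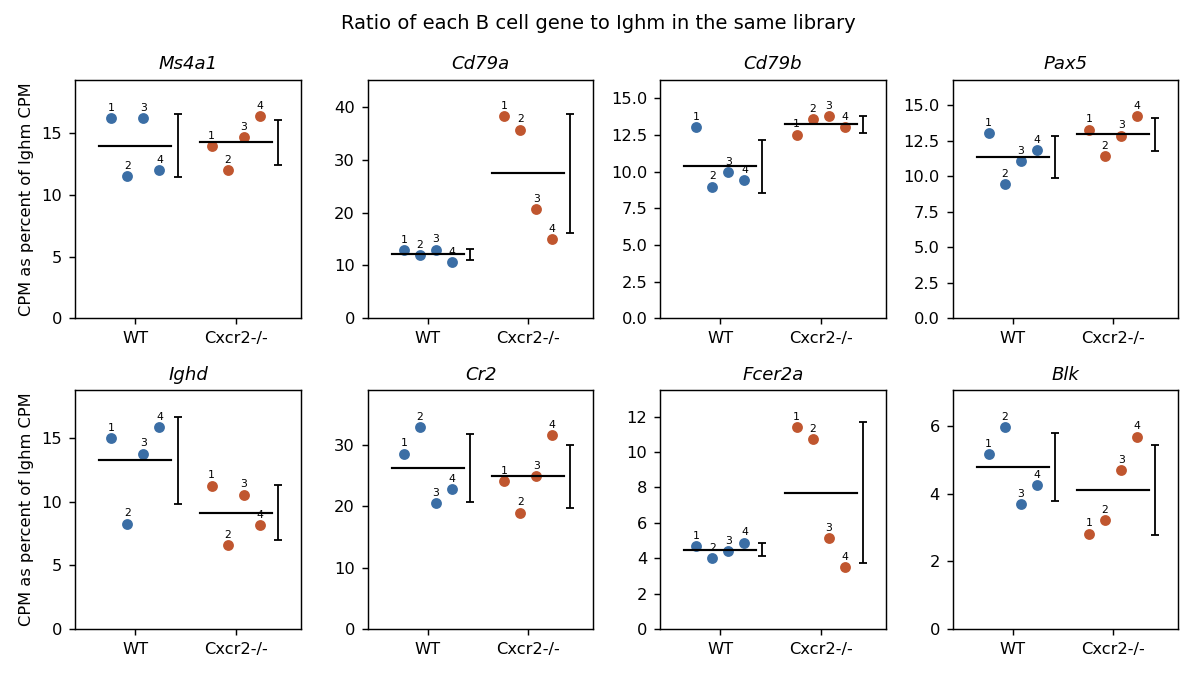
CPM of the other 8 B cell genes as a percentage of the *Ighm* CPM of the same library, on axes that start at 0. Points are libraries marked with their replicate number and lines are group means. The groups overlap for *Ms4a1*, *Pax5* and *Cd79b*, the last by WT library 1 alone, whereas *Cd79a* reaches 38.3% in *Cxcr2-/-* library 1.

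The sequence around the transcription start was compared between 2 pairs of genes. *Cr2* and *Pax5* followed *Ighm* in the order of the *Cxcr2-/-* libraries, and *Cd79a* and *Fcer2a* did not. This split does not hold in WT. Over the 4 WT libraries, r with *Ighm* was 0.98 for *Cd79a*, *Fcer2a* and *Pax5* and 0.78 for *Cr2*. RefSeq promoters (GRCm38.p6, 250 bases before to 50 bases after the start) were found for 4 of the 9 genes, namely *Cr2* (chr1:195176670-195176969, minus strand), *Pax5* (chr4:44710645-44710944, minus strand), *Cd79a* (chr7:24897247-24897546, plus strand) and *Fcer2a* (chr8:3694125-3694424, minus strand). Each is written from 5′ to 3′ on the strand of the gene, with the matches to the searched motifs in capitals.
Cr2: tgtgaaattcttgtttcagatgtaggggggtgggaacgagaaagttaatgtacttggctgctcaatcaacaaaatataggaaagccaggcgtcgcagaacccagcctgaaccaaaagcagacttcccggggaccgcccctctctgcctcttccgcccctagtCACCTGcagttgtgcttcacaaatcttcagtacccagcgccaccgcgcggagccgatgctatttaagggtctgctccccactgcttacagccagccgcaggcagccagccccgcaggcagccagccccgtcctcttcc
Pax5: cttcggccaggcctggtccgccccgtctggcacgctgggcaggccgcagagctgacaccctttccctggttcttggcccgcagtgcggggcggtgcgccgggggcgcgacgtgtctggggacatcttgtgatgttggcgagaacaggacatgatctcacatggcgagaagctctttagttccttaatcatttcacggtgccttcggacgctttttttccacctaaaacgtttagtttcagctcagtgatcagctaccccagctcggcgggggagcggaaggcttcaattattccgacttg
Cd79a: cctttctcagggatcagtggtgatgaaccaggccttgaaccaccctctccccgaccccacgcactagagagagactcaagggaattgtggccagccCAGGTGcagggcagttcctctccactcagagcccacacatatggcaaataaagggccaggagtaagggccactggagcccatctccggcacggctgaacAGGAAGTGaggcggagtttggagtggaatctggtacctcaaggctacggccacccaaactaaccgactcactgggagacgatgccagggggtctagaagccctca
Fcer2a: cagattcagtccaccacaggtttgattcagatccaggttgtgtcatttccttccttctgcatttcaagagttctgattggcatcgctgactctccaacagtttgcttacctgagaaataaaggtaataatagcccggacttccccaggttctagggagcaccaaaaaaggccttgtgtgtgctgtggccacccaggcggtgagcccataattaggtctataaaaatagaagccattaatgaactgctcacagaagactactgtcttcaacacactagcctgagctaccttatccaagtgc
The E-box CAGGTG, a motif of E2A type factors, was found in *Cd79a* and, as its reverse complement, in *Cr2*, and 20.2% of all 32851 promoters hold it on either strand. The Ets motif AGGAAGTG was found in *Cd79a* and is in 4.07% of promoters. The octamer ATTTGCAT, known from immunoglobulin promoters, and the palindromic letters CCCNNGGG of the Ebf motif were in none of the 4 and are in 1.74% and 13.7% of promoters. The searched motifs do not overlap in these 4 sequences, and no motif was shared by *Cd79a* and *Fcer2a* that *Cr2* and *Pax5* lacked.

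Further B cell genes were examined beside the 9. Among all genes tested, 21.0% were lower and 23.7% higher. Of 30 other genes typical of B cells, 29 were tested, 19 were lower, 2 were higher and 8 did not pass, with a median log2 fold change of -1.14. The number of lower genes fell to 10 without WT library 1 and to 11 without WT library 3 or *Cxcr2-/-* library 2. *Ebf1*, a lineage factor that acts with *Pax5*, was at 4.07 ± 1.62 CPM in WT libraries against 1.52 ± 1.03 CPM in *Cxcr2-/-* libraries (log2 fold change -1.41, SE 0.46, adjusted p = 0.0237 by edgeR). It lost its call without WT library 1 (adjusted p = 0.0613 by edgeR), WT library 3 (0.0742) or *Cxcr2-/-* library 2 (0.0617). Its r to the mean level of the 9 genes was 0.81 after removal of the group means, over the 8 libraries.

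The 4 of these genes with the most CPM were *Cd37*, *Fcrl1*, *Siglecg* and *Bank1*. *Cd37*, a tetraspanin of many leukocytes, was at 293 ± 28.2 CPM in WT libraries against 361 ± 39.1 CPM in *Cxcr2-/-* libraries (log2 fold change 0.30, SE 0.11, adjusted p = 0.0381 by edgeR). This call was lost in 6 of the 8 fits without 1 library, those without WT library 1 or *Cxcr2-/-* library 4 being the exceptions, and adjusted p was 0.0504 to 0.139 in the 6. *Fcrl1*, an Fc receptor-like protein, was at 43.1 ± 4.33 and 29.4 ± 1.13 CPM, *Siglecg*, an inhibitory lectin, at 40.6 ± 1.99 and 32.3 ± 4.66 CPM, and *Bank1*, a B cell scaffold protein, at 26.2 ± 1.71 and 13.7 ± 2.15 CPM, all lower in *Cxcr2-/-*. The call of *Siglecg* was lost without WT library 4 (adjusted p = 0.0647 by edgeR) or *Cxcr2-/-* library 3 (0.0538). With the group means removed, their r to the mean level of the 9 genes was 0.24 for *Cd37*, -0.20 for *Fcrl1*, -0.66 for *Siglecg* and 0.59 for *Bank1*. The other higher gene was *Tnfrsf13b*, which encodes the receptor TACI, at 5.73 ± 1.15 and 15.2 ± 2.85 CPM (log2 fold change 1.40, SE 0.18, adjusted p = 4.47e-05 by edgeR). Its r to the 9 genes was 0.86 after removal of the group means, so it varied with them among libraries of a group while its level was higher in *Cxcr2-/-*.

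Genes that act downstream of the B cell receptor, many of which neutrophils use as well, were examined beside *Blk*. Of 13 such genes, all tested, 5 were lower and none higher (median log2 fold change -0.14). Among all genes tested, 21.0% were lower and 23.7% higher. *Syk*, the kinase that binds the CD79 chains, was at 1296 ± 49.1 CPM in WT libraries against 1038 ± 75.9 CPM in *Cxcr2-/-* libraries (log2 fold change -0.32, SE 0.10, adjusted p = 0.0185 by edgeR), a call that was lost without WT library 4 (0.0648) or *Cxcr2-/-* library 2 (0.0601). *Lyn*, a Src family kinase related to *Blk*, was at 713 ± 28.9 and 645 ± 3.56 CPM (log2 fold change -0.14, adjusted p = 0.205 by edgeR), but was called lower under total-count (0.0283) and upper-quartile scaling (0.0245).

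Over 12870 genes with a mean of at least 1 CPM, the 10 whose log2 CPM was most like the mean level of the 9 genes had r of 0.96 to 0.98 over the 8 libraries (0.90 to 0.97 with the group means removed). In order they were *Sirpb1c*, *Gimap6*, *Card14*, *Tnfrsf13c*, *Erp29*, *Gnpda1*, *Ighg3*, *Ptpn14*, *Pou2af1* and *Blnk*. Of these, *Tnfrsf13c* (the BAFF receptor), *Pou2af1* (a B cell coactivator of octamer factors) and *Blnk* (an adaptor of the B cell receptor) were on the list of other B cell genes. *Sirpb1c*, a signal regulatory protein of myeloid cells, was at 76.4 ± 12.0 CPM in WT libraries against 49.6 ± 5.0 CPM in *Cxcr2-/-* libraries. The list of other B cell genes had 25 members among those ranked, 10 of them in the first 100, and their median r was 0.84, against -0.13 for all genes ranked. Without WT library 1, the 10 named genes had r of 0.93 to 0.98, but only 2 of them, *Ighg3* and *Blnk*, were still among the first 10 and 9 among the first 100. The list of other B cell genes then had 7 members in the first 100 and a median r of 0.77, against -0.11 for all genes ranked.

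Several immunoglobulin genes of switched antibody classes were higher in *Cxcr2-/-* neutrophils, unlike *Ighm* and *Ighd*. Among all genes tested, 23.7% were higher and 21.0% lower. Of 13 genes typical of plasma cells, 11 were tested, 6 were higher in *Cxcr2-/-* neutrophils and 2 were lower (median log2 fold change 1.14). Of the lower genes, 1 was *Prdm1*, the factor that drives plasma cell differentiation, at 3.62 ± 1.46 CPM in WT libraries against 1.76 ± 0.673 CPM in *Cxcr2-/-* libraries (log2 fold change -1.04, SE 0.34, adjusted p = 0.0244 by edgeR). Its groups did not overlap, but its call was lost without WT library 2 (0.0876). It was also lost under 1 of the 7 other settings of test, scaling, filter or block. *Irf4*, another factor of plasma cells, was at 5.27 ± 1.86 and 2.73 ± 1.62 CPM (log2 fold change -0.95, SE 0.40, adjusted p = 0.0722 by edgeR), and was called lower without WT library 4 (0.0266) or *Cxcr2-/-* library 4 (0.0197), with upper-quartile scaling (0.0497) and without a filter (0.0118). *Mzb1* and *Tnfrsf17*, which plasma cells express, were at or below 0.287 CPM in every library. *Igha*, the IgA heavy chain, was at 6.37, 6.63, 3.61 and 2.78 CPM in WT libraries and at 8.01, 9.05, 12.8 and 16.7 CPM in *Cxcr2-/-* libraries, without overlap (log2 fold change 1.26, SE 0.29, adjusted p = 0.00382 by edgeR). *Ighg2b* was at 0.341 ± 0.177 CPM in WT libraries against 4.05 ± 1.37 CPM in *Cxcr2-/-* libraries (log2 fold change 3.52, SE 0.37, adjusted p = 9.73e-06 by edgeR), and *Jchain*, which joins IgA and IgM multimers, at 1.59 ± 0.907 and 4.35 ± 1.58 CPM (log2 fold change 1.44, SE 0.43, adjusted p = 0.0155 by edgeR). *Ighg2c* had 0 reads in all WT libraries, where 3 reads would be 0.0603 to 0.0868 CPM, and 74, 11, 15 and 47 reads in *Cxcr2-/-* libraries 1, 2, 3 and 4. *Xbp1*, a factor of secretory cells that neutrophils express too, was at 96.6 ± 6.4 and 143 ± 8.06 CPM.

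*Ighg1* was at 4.42, 2.83, 0.321 and 0.0578 CPM in WT libraries and at 7.94, 9.68, 6.51 and 5.18 CPM in *Cxcr2-/-* libraries, the lowest WT value being 2 reads. Its call (log2 fold change 1.91, SE 0.70, adjusted p = 0.0420 by edgeR) was lost with DESeq2 (adjusted p = 0.159), under total-count (0.0598) and upper-quartile scaling (0.0552), and without WT library 2 (0.0559) or 3 (0.0911) or *Cxcr2-/-* library 1 (0.0654), 2 (0.0873) or 3 (0.0581). *Ighg3* was lower like *Ighm*, at 2.07 ± 0.811 CPM in WT libraries against 0.830 ± 0.430 CPM in *Cxcr2-/-* libraries (log2 fold change -1.31, SE 0.39, adjusted p = 0.0163 by edgeR), and its call was lost without WT library 1 (0.0502) or 3 (0.0528). *Igkc*, the kappa light chain shared by naive B cells and plasma cells, was at 11.8 ± 4.37 and 15.3 ± 3.71 CPM (log2 fold change 0.37, SE 0.24, adjusted p = 0.230 by edgeR, but 0.0388 without WT library 1). Summed heavy chain V segments were at 27.4 to 30.9 CPM in WT libraries against 18.0 to 26.0 CPM in *Cxcr2-/-* libraries, and kappa V segments at 4.57 to 12.0 and 8.04 to 17.5 CPM. The IgG genes are close copies of one another and the mice are FVB while the reference genome is C57BL/6J, so reads may have been assigned to the wrong copy. *Ighg2b*, *Ighg2c*, *Ighg3*, *Jchain*, *Prdm1*, *Mzb1*, *Tnfrsf17*, *Igkc*, *Tnfrsf13b* and *Ebf1* were named after their values were seen.

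**Figure D5:**
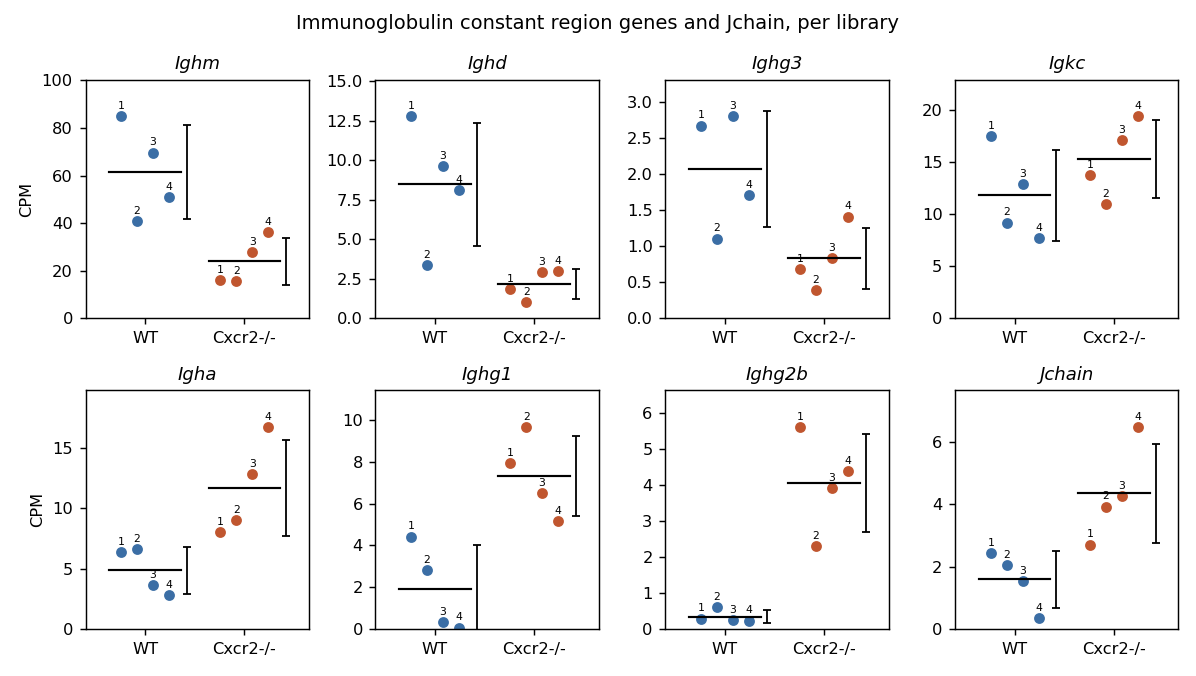
CPM per library of 7 immunoglobulin constant region genes and *Jchain*, 1 panel per gene with its own axis from 0. Points are libraries marked with their replicate number, horizontal lines are group means and vertical bars are SD (n = 4), cut at 0. *Ighm*, *Ighd* and *Ighg3* are lower in *Cxcr2-/-* libraries, and *Igha*, *Ighg1*, *Ighg2b* and *Jchain* are higher.

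Most markers of other cells that a spleen sort could hold were highest in another WT library than the B cell genes. The 9 MHC class II genes, which B cells share with dendritic cells and macrophages, were all highest in WT library 2, the library with the lowest *Ighm*, and summed to 226 to 1057 CPM in WT libraries against 119 to 362 CPM in *Cxcr2-/-* libraries. All 6 NK cell genes, 9 of 12 macrophage and monocyte genes and 4 of 5 detected dendritic cell genes were likewise highest in WT library 2. In the *Cxcr2-/-* libraries, library 4 was the highest for 8 of 9 MHC class II and 8 of 12 macrophage genes, as it was for 7 of the 9 B cell genes. In the test, 4 of the 9 MHC class II genes, 3 of 12 macrophage, 3 of 5 dendritic cell, 3 of 6 T cell and 0 of 6 NK cell genes tested were lower, and 2 macrophage genes were higher. Among all genes tested, 21.0% were lower and 23.7% higher. Of the MHC class II genes, *H2-Aa* lost its call in 5 of the 8 fits without 1 library and under 2 of 7 other settings. *Cd74* was not called (adjusted p = 0.0556 by edgeR). It was called in 2 of the 8 fits without 1 library and under 4 of 7 other settings. The T cell genes *Cd3e*, *Trac*, *Trbc1* and *Trbc2* were at or below 0.563 CPM in every library. Other genes of the T cell list were higher, with *Cd3d* at 99.1 ± 13.6 CPM in WT and 108 ± 21.6 in *Cxcr2-/-* libraries, *Cd6* at 19.9 ± 1.49 and 15.6 ± 2.51 CPM, *Cd5* at 19.1 ± 2.67 and 11.3 ± 1.91 CPM, and *Cd4* at 6.16 ± 5.52 and 1.34 ± 0.564 CPM. *Cd4* reached 14.1 CPM in WT library 2. The 7 genes of B cell precursors, which include the recombinase genes, were too low to be tested, and summed to at most 0.904 CPM. The 12 neutrophil genes summed to 49760 to 67626 CPM in WT libraries against 1.10e+05 to 1.45e+05 CPM in *Cxcr2-/-* libraries. Within WT this sum was highest in library 1 and lowest in library 2, as for most of the B cell genes. Within *Cxcr2-/-* it was lowest in library 4, where 7 of the 9 B cell genes were highest. Of the 12 neutrophil genes, 10 were higher, 1 was lower and 1 did not pass. The lower gene, *Csf3r*, was at 6960 ± 462 CPM in WT against 3334 ± 147 CPM in *Cxcr2-/-* libraries (log2 fold change -1.06, SE 0.11, adjusted p = 1.11e-05 by edgeR). *Csf3r* was named after its values were seen. The part of these markers in the differences of the B cell genes was not tested.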

How the data were processed

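RNAseq was made from sorted spleen neutrophils of 4 WT and 4 *Cxcr2-/-* mice. Libraries were strand-specific and made after removal of ribosomal RNA. The authors checked the reads with FastQC, aligned them to mm10 and counted them with HTSeq, and they deposited a whole-number count per Ensembl gene, not normalized. The strand setting of the counting and the annotation release are not given in the sources used here. Of 55414 identifiers, 52133 were found in the M21 release of GENCODE (GRCm38), which gave symbols and positions, and 3281 (1.42% of the counts) had none. The version suffix matched M21 for only 35, so exon lengths may differ from those used for counting.

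Groups and replicate numbers came from the labels. No pair of libraries in a group agreed within sampling noise. Counts were tested in R 4.3.3 with edgeR 4.0.16 (quasi-likelihood test, TMM normalization, filterByExpr, Benjamini-Hochberg adjustment over 16778 genes, with 38636 filtered out). The steps were tested on simulated counts in which far fewer genes changed than were called here, equally many up and down. The scaling was thus not tested with as many changes as in these data. Common biological variation was 0.202. DESeq2 1.42.0, which the study used, other scalings and filters, the replicate block and each library left out were alternatives. Levels per kb use merged exons. Correlations between gene pairs used log2 CPM without a prior count. Correlations with the mean level of the B cell genes used log2 CPM with a prior count of 2.

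The 9 genes and all marker lists were chosen with earlier results of these data known. Named genes were the 9 genes, up to 4 genes of each list described with the highest mean CPM, *Cxcr2* and the 10 genes most like the mean of the 9 genes' z-scores, apart from those marked in the text and the T cell receptor genes, which were chosen as defining markers after their values were seen. The depth of 34220182 to 46233555 counts per library limits the precision of genes near 1 CPM. Some of the genes on the lists are not reported by name here.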

Additional observations from a re-analysis of the deposited data

Results flagged for a closer look

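In each group of 4 libraries, the gap between the most extreme library and its nearest neighbour was set against the whole range of the group. This was done for named genes that passed the filter on low counts. Chance alone flags about 1 in 20 groups. Of 97 groups tested, 3 were flagged, none of them for the 9 B cell genes. *Siglecg* in WT had a gap of 0.831 of its range, with library 1 at 37.7 CPM and the others at 41.3 to 42 CPM, so the library with the most *Ighm* had the least *Siglecg*. *Ighg2b* in WT had a gap of 0.849 of its range, with library 2 at 0.603 CPM and the others at 0.231 to 0.287 CPM. *Irf4* in WT had a gap of 0.891 of its range, with library 4 at 2.49 CPM and the others at 6.04 to 6.47 CPM.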

How the results depend on the processing

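With edgeR, 8 of the 9 B cell genes were lower and 0 were higher in *Cxcr2-/-* neutrophils, and the 8 were unchanged in number with DESeq2, RLE, upper-quartile or total-count scaling, no filter, a minimum of 10 counts per library and the replicate block. Leaving out 1 library gave 3 to 9 lower genes and 0 higher genes. No direction was reversed for any of the genes named, though *Ighg1*, *Ighg2b* and *Ighg2c* had no value under the minimum of 10 counts. Of the other B cell genes, 19 were lower, and 10 to 19 when 1 library was left out (10 without WT library 1, 11 without WT library 3 and 11 without *Cxcr2-/-* library 2). The 2 higher ones, *Cd37* and *Tnfrsf13b*, became 1 with DESeq2, RLE, upper-quartile or total-count scaling, no filter and the filter of at least 10 counts, and 1 to 3 with 1 library left out. Over all genes, 3526 were lower and 3969 higher, whereas upper-quartile scaling gave 4391 lower and 3076 higher and moved the median log2 fold change of all genes from 0.01 to -0.11. Replicate numbers did not pair the libraries (correlation of same-numbered deviations 0.12, -0.19, 0.16 and -0.26, and not every library correlated best with its own number), and with the replicate block 8 of the 9 genes were lower. Scaling by total counts gave a mean summed level of 125 CPM in WT and 49.7 CPM in *Cxcr2-/-*, against 122 and 50.6 CPM. Without WT library 1, left out of the correlations after the data were seen, the median r over the 36 gene pairs was 0.90, against 0.92. The fold change of *Blk* rests on 18 to 51 reads in 3 *Cxcr2-/-* libraries.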
